A study of Mus musculus with 6 samples.

Results

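The genes described here build the machinery of excitation-contraction coupling, and they were taken by name: Ryr1, Ryr3, Cacna1s, Cacnb1, Cacng1, Jph1, Jph2, Stac3, Jsrp1 and Trdn. All 10 genes were found on the arrays, with 30 probe sets between them out of 35556. The comparison covered 21559 units, of which 19938 were genes. The cells were C2C12, an established mouse myoblast line labelled wild type, which leaves the cell cycle and fuses into myotubes when serum is lowered. Cells kept in 10% fetal bovine serum were moved to 2% horse serum. On day 1 of differentiation they were transfected either with a control siRNA (3 arrays) or with an siRNA against mouse H19 (3 arrays), and total RNA was taken 40 h later. The protocol also held a reseeding of the cells, at the same density for all arrays. How many siRNA sequences were used is not given in the sources used here, nor whether the replicates were separate cultures. The p-values below therefore weigh each difference against the scatter among these samples, which can be technical.

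In skeletal muscle an action potential runs along the transverse tubules, which are inward folds of the surface membrane. A voltage sensor in the tubule membrane, the dihydropyridine receptor, then opens the ryanodine receptor of the facing sarcoplasmic reticulum through direct contact, and calcium leaves the store. Junctophilins hold the tubule and reticulum membranes together at this junction, the triad, while triadin and its partners tie the calcium store to the release channel. Myoblasts assemble these proteins as they become myotubes.

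Markers of muscle and of other cells were checked against the labelled cell line. The 10 muscle markers (Des, Myod1, Myog, Myf5, Myh3, Ckm, Tnnt3, Acta1, Myl1 and Mymk) lay between the 74.4th and the 97.2nd percentile of all rows, while the 22 measured markers of other cell types lay between the 14.9th and the 82.7th. These ranges overlap, each probe set has its own affinity and no detection call was at hand, so the ranks are a description and no test of the cell type. No probe set is listed under H19 alone. The probe set listed under Mir675, which lies inside the H19 gene, together with Supt6 fell by 1.89 on the log2 scale (SE 0.04), to 26.9% of the control level. Pearson's r between arrays was 0.9958 to 0.9975, with the second H19 siRNA array having the lowest mean r to the others (0.9962, against 0.9968 or more for the rest).

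With H19 siRNA most of the coupling genes read slightly higher, and none passed the test across all genes. Of the 10 members 8 had a positive difference, against 58.0% of all units, and the median was 0.12 on the log2 scale, against 0.0137 over all units. At an adjusted p under 0.05 in limma 0 members were called, where 0.199% of all units were (43 units, 27 higher and 16 lower). Unadjusted p-values under 0.05 were reached by 3 members, Jph2, Stac3 and Cacng1, all higher, against 6.61% of units. The 3 H19 siRNA arrays lay above all 3 control arrays for 5 members (Ryr1, Cacng1, Stac3, Jph2 and Jsrp1), against 10.5% of units, and below them for 0 members, against 7.09% of units. In bulk RNA a change in the number of muscle cells and a change in RNA per cell cannot be told apart.

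Most of the 10 muscle markers also read higher with H19 siRNA, and none passed the test. The mean log2 value over the 10 muscle markers ran from 11.31 to 11.33 in control cells and from 11.40 to 11.45 after H19 siRNA. Of the 10, 8 had a positive difference, 7 were higher with no overlap, against 10.5% of units, and 0 were called. With an intensity trend and robust variance in limma, which called 2.02% of units, 5 of the 10 were called, Myog, Myod1, Mymk, Acta1 and Myf5, all higher. Myod1 and Myog, the transcription factors that set up and complete the muscle programme, differed by 0.23 and 0.22 (limma adjusted p = 0.0965 and 0.0779), Ckm by 0.10 and Myh3 by -0.03. The mean over the 22 markers of other cells ran from 6.25 to 6.27 and from 6.22 to 6.33. The part of the muscle markers in the results for the coupling genes was not tested.

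Scaling bears on how many groups were apart. After each array was centred on its median, only Jph2 and Cacng1 of the 10 members were higher with no overlap, against 5.51% of units, and the called units were 19 higher and 17 lower. The members kept their directions, 8 of 10 positive, with a median of 0.10, while the share of positive units fell to 44.7%. Without the second H19 siRNA array 8 members were higher with no overlap, all but Jph1 and Trdn, against 19.6% of units in that 3 against 2 comparison.

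**Figure D1:**
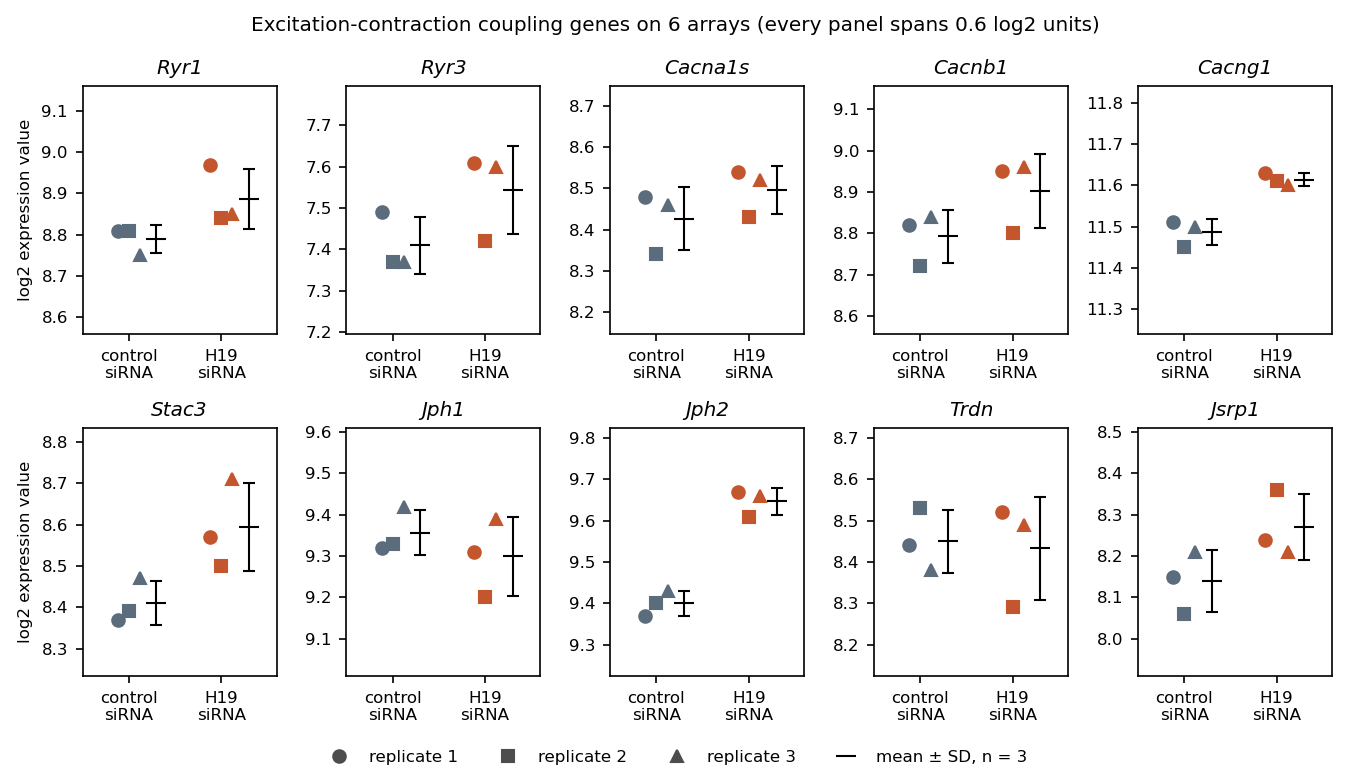
Log2 expression value (vertical axis, every panel spanning 0.6 log2 units) of the 10 members on the 3 control siRNA and 3 H19 siRNA arrays, with the marker shape giving the replicate number and the bar giving mean ± SD (n = 3). The Jph2 groups stand farthest apart, at 9.37 to 9.43 and 9.61 to 9.67, while the groups of Ryr3, Cacna1s, Cacnb1, Jph1 and Trdn overlap.

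The release channels read higher on average with H19 siRNA, and neither passed the test. Ryr1 encodes the release channel of adult skeletal muscle. Its control arrays read 8.81, 8.81 and 8.75, and its H19 siRNA arrays 8.97, 8.84 and 8.85. The groups did not overlap, by a margin of 0.0299 between the lowest H19 siRNA and the highest control array, and a single H19 siRNA array, the first, stood clearly above the rest. The difference was 0.09 on the log2 scale (SE 0.05, 95% interval -0.01 to 0.20, limma adjusted p = 0.520). Ryr3, a second form of the channel found in developing muscle, read 7.49, 7.37 and 7.37 against 7.61, 7.42 and 7.60. Its groups overlapped, because the second H19 siRNA array lay below the first control array. It differed by 0.13 (SE 0.06, interval -0.02 to 0.28, limma adjusted p = 0.512).

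Among the subunits of the voltage sensor only Cacng1 kept the groups apart. Cacna1s, the pore-forming subunit that senses voltage, read 8.48, 8.34 and 8.46 in control cells and 8.54, 8.43 and 8.52 after H19 siRNA, a difference of 0.07 (SE 0.05, interval -0.05 to 0.19, limma adjusted p = 0.665). Cacnb1, the beta subunit on its inner face, read 8.82, 8.72 and 8.84 against 8.95, 8.80 and 8.96, a difference of 0.11 (SE 0.06, interval -0.03 to 0.25, limma adjusted p = 0.559). In both genes the second array was the lowest of its group in controls and in H19 siRNA cells alike, and the second H19 siRNA array fell within the control range. Cacng1, the gamma subunit, read 11.51, 11.45 and 11.50 against 11.63, 11.61 and 11.60. Its H19 siRNA arrays agreed closely (SD 0.0174) and lay at least 0.0840 above every control array. The difference was 0.13, or 1.09-fold (SE 0.03, interval 0.04 to 0.21), with a limma adjusted p of 0.265.

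Stac3, an adaptor that the voltage sensor needs for its place in the membrane and for its coupling to the release channel, had the second largest difference of the 10 after Jph2. It read 8.37, 8.39 and 8.47 with control siRNA and 8.57, 8.50 and 8.71 with H19 siRNA. The groups were apart by 0.0378, and the H19 siRNA arrays spread more (SD 0.11 against 0.05). The difference was 0.19, or 1.14-fold (SE 0.06, interval 0.04 to 0.33, limma adjusted p = 0.344).

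Of the junctophilins Jph2 had the groups apart and Jph1 did not, and neither passed the test. Jph2 has 2 probe sets, and both were higher on every H19 siRNA array. The brighter read 9.37, 9.40 and 9.43 in control cells and 9.67, 9.61 and 9.66 after H19 siRNA, with an SD of 0.03 in each group. The margin between the groups, 0.184, was several times that spread. The difference was 0.25, or 1.19-fold (SE 0.04, interval 0.16 to 0.33), with a limma adjusted p of 0.0750. The other probe set read 9.38, 9.36 and 9.35 against 9.63, 9.45 and 9.51, a difference of 0.17 (SE 0.05, interval 0.04 to 0.30, limma adjusted p = 0.492 in the fit over all rows, where the brighter one had 0.197). Jph1, whose 2 probe sets pointed in opposite directions, showed no separation. Its brighter probe set read 9.32, 9.33 and 9.42 against 9.31, 9.20 and 9.39, a difference of -0.06 (interval -0.19 to 0.08, limma adjusted p = 0.770), and its other one 9.18, 9.11 and 9.19 against 9.16, 9.23 and 9.20, a difference of 0.04 (interval -0.06 to 0.14). Whether the difference of Jph2 departs from that of Jph1 was not tested.

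**Figure D2:**
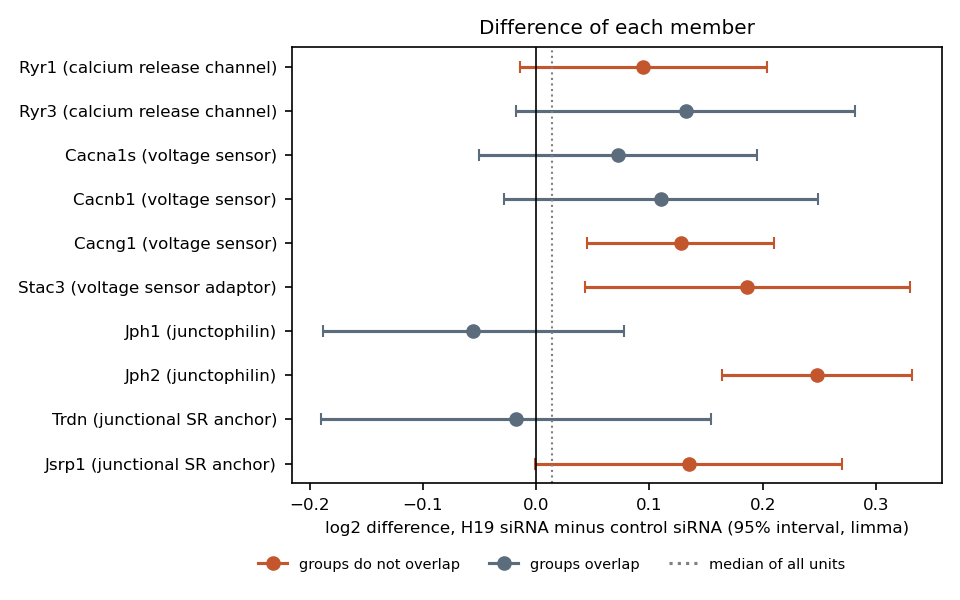
Difference of each member (horizontal axis, log2, H19 siRNA minus control siRNA) with its 95% interval from limma, coloured by whether the 3 arrays of each group overlap. The interval lies above 0 for Jph2, Stac3 and Cacng1, and the dotted line marks the median of all units at 0.0137.

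Whether Jph2 was called depended on how variance was modelled, which units were tested and how the arrays were scaled. Its adjusted p ran from 0.00399 to 0.367 over the 15 alternatives, with a difference of 0.21 to 0.27. It passed in 5 of them: with an intensity trend and robust variance (0.00399), when only units above the 30th percentile (0.0354) or above the median (0.0103) were tested, with array weights (0.0401) and after a second quantile normalisation (0.0432). After median centring its adjusted p was 0.159. The intensity trend, which called 2.02% of all units (435, of which 242 higher), also called Cacng1 (limma adjusted p = 0.0171), whose adjusted p over the alternatives ran from that value to 0.608. No other member was called under any of the 15 alternatives. Ryr3 was not tested with the filter at the median, which it did not pass.

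Of the 2 proteins that anchor the store at the junction neither passed the test. Jsrp1, a membrane protein of the junctional reticulum that binds the voltage sensor and calsequestrin, read 8.15, 8.06 and 8.21 against 8.24, 8.36 and 8.21. Its groups touched, with a margin of 0.00138, and differed by 0.13 (SE 0.06, interval -0.0013 to 0.27, limma adjusted p = 0.466). Unlike in most members, the second H19 siRNA array was the highest of its group. Trdn, triadin, which links calsequestrin to the ryanodine receptor, read 8.44, 8.53 and 8.38 against 8.52, 8.29 and 8.49 on its brightest probe set. The difference was -0.02 (SE 0.07, interval -0.19 to 0.15, limma adjusted p = 0.951), and it was 0.06 without the second H19 siRNA array and 0.02 without the second control array.

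Trdn is covered by 19 probe sets, whose positions along the gene are not given here. Every one has the same RefSeq transcript in its annotation, so which isoform each reads is not settled here. Of the 19, 7 had a positive and 12 a negative difference, with a median of -0.05, and in 0 of them were the groups apart. The smallest unadjusted limma p of the 19 was 0.107 (smallest adjusted p 0.662, fit over all rows). Values of 10 probe sets lay between 3.62 and 5.62, with means under the 30th percentile of all rows (5.45), low signals for which no detection call was at hand. Among the 9 brighter ones 4 differences were positive and 5 negative. The widest difference, -0.55 (interval -1.31 to 0.21), came from a dim probe set (10362426) that read 4.53, 5.59 and 5.62 in control cells and 4.49, 4.84 and 4.76 after H19 siRNA, so the first control array lay among the H19 siRNA values. The next, -0.38 (interval -0.93 to 0.17), came from a probe set (10362428) at 6.87, 6.91 and 6.83 against 6.89, 5.98 and 6.60, where the second H19 siRNA array alone stood far below.

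**Figure D3:**
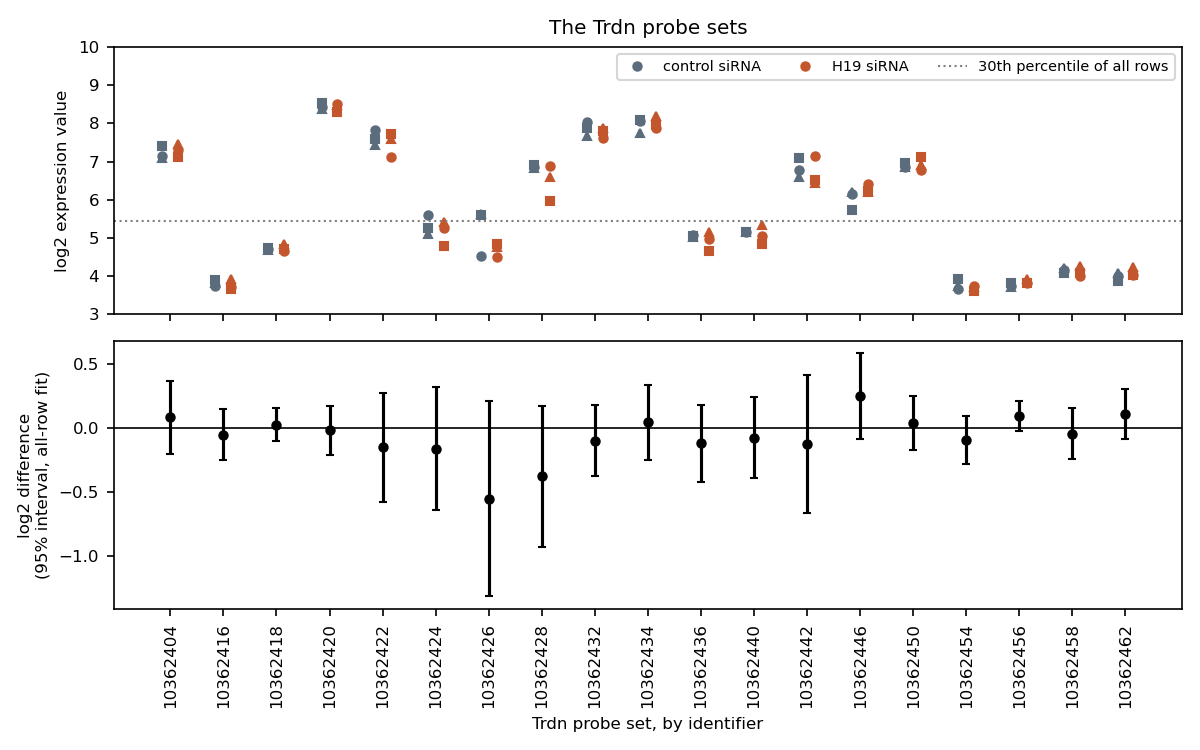
Upper panel: log2 expression value of the 19 Trdn probe sets, ordered by identifier, on each control siRNA and H19 siRNA array (circle, square and triangle for replicates 1, 2 and 3), with the 30th percentile of all rows as a dotted line. Lower panel: log2 difference, H19 siRNA minus control siRNA, with its 95% interval from the limma fit over all rows, which covers 0 for all 19.

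Single arrays bear on the size of several of the differences. Leaving out 1 array moved the difference by over 1.5 times, or turned its sign, for 6 of the 10 members. Ryr1 went from 0.09 to 0.05 without the first H19 siRNA array. Without the second control array Cacna1s went from 0.07 to 0.03 and Cacnb1 from 0.11 to 0.07. Without the second H19 siRNA array Jsrp1 went from 0.13 to 0.09 and Jph1 from -0.06 to -0.0071, and Jph1 was -0.02 without the third control array and -0.10 without the third H19 siRNA array. Trdn, near 0 in the full comparison, ran from -0.06 to 0.06 and moved with every array left out but the first control array. Cacng1, Stac3, Jph2 and Ryr3 moved by less. The second H19 siRNA array was the lowest of its group for 8 of the 10 members, all but Cacng1 and Jsrp1, against 44.9% of all units. The second control array was the lowest of its group for 4 of the 10, against 34.1% of units. With 3 arrays a group the smallest two-sided p of an exact permutation test is 0.1, the value of the 5 members whose groups were apart.

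Promoter sequence was at hand for 4 of the 10 members in RefSeq's GRCm38.p6 table (Cacna1s, Cacnb1, Jph2 and Ryr1), of which Jph2 and Ryr1 had groups apart. The 250 bases before each start of that table were searched on both strands for the E-box CANNTG, the letters that basic helix-loop-helix factors such as Myod1 and Myog bind, for its form CAGCTG (a subset of the first), for the M-CAT element CATTCC, and for the MEF2 site and the CArG box. The windows shown are 3: that of the member with the largest difference, that of the voltage-sensing subunit and that of the main release channel. Each is written 5′ to 3′ on the gene's own strand with E-boxes in capitals. The starts of the table lie inside the RefSeq gene span, so the last 56 bases of the Jph2 window, 28 of Ryr1 and 5 of Cacna1s fall within the gene, as do both Cacnb1 windows whole. The letters shown are those before the gene span. They lie at chr2:163398050-163398243 on the minus strand for Jph2, at chr1:136052561-136052805 on the plus strand for Cacna1s and at chr7:29125180-29125401 on the minus strand for Ryr1.

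Jph2: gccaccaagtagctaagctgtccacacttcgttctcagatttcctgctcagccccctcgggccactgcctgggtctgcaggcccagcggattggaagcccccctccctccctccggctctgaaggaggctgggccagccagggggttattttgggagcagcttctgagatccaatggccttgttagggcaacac
Cacna1s: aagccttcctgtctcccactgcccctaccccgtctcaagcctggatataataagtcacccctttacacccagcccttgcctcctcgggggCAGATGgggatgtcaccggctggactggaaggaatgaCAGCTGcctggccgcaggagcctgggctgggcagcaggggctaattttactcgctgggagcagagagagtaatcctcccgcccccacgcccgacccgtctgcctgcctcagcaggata
Ryr1: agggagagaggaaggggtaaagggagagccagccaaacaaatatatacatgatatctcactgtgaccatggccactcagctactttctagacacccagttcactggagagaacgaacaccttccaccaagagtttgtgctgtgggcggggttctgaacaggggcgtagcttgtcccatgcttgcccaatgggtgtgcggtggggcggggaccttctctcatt

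The Jph2 window holds 1 E-box, of the CAGCTG form, whose first base lies 9 bases before the start of the table, inside the gene span and so past the letters shown. The table lists a second start for Jph2, whose window holds the same letters 29 bases before it. The Cacna1s window holds 2, a CAGATG that begins 160 bases before the start and a CAGCTG that begins 123 bases before it, and next to the latter an M-CAT element on the other strand that begins 130 bases before the start. The Ryr1 window holds none. Of the 2 Cacnb1 windows 1 holds a CACATG, and none of the 6 windows of members holds a MEF2 site or a CArG box by the patterns used. Of all 32851 windows of this length 66.2% hold an E-box, 13.0% the CAGCTG form, 12.6% an M-CAT element, 2.92% a MEF2 site and 1.47% a CArG box. These matches are letters in a window and are not tied to the differences above.

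The paralogues of the members showed no separation. Of 9 measured paralogues 5 had a positive and 4 a negative difference, between -0.11 and 0.12, with a median of 0.05, and in 0 of them were the groups apart. Stac2 lay at the 80.7th percentile of all rows and the other paralogues between the 25.1st and the 49.2nd. The members lay between the 57.7th and the 93.3rd. Differences near background are compressed and no detection call was at hand, so the lack of separation is no contrast with the members. Ryr2, the release channel of heart muscle, read 5.90, 5.81 and 5.89 against 5.85, 6.03 and 5.87, a difference of 0.05. Jph3 and Jph4, junctophilins of the nervous system, differed by 0.05 and 0.12 (limma adjusted p = 0.695 and 0.643). Cacna1c and Cacna1d, pore-forming subunits of other calcium channels, differed by -0.03 and 0.07, and the beta subunits Cacnb2 and Cacnb4 by -0.11 and 0.06. Stac and Stac2, relatives of Stac3, both differed by -0.03, with intervals of -0.11 to 0.06 each. Cacnb3 and Cacng6 were not analysed here.

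The wider machinery had differences of both signs. Of 57 further genes listed by role 48 were measured, 25 with a positive and 23 with a negative difference and a median of 0.0169. At an adjusted p under 0.05 in limma 0 were called, and at an unadjusted p under 0.05 there were 5 higher, against 6.61% of units, and 3 lower, against 4.25%. The smallest p-values were those of Tmem38b, S100a1, Srl and Cavin4. Tmem38b, a potassium-permeable channel of the reticulum that carries counter-current during calcium release, read 10.78, 10.79 and 10.77 against 10.92, 10.96 and 10.96. These values come from the brighter of its 2 probe sets, and the other is not given here. On the brighter one the groups were clearly apart, with a difference of 0.17 (SE 0.03, interval 0.09 to 0.25, limma adjusted p = 0.140). Tmem38b alone of the 48 was called with the intensity trend, as it was among units above the median level. Srl, sarcalumenin, a calcium-binding protein inside the reticulum, read 10.32, 10.34 and 10.30 against 10.43, 10.57 and 10.43, a difference of 0.15 (limma adjusted p = 0.319).

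By role, separation was seen in both directions for the store and in a single direction for the tubules and the modulators, in small numbers. Among 8 genes of calcium store and uptake 3 were higher with no overlap (Tmem38b, Srl and the calcium pump Atp2a1) and 2 lower (the calcium-binding proteins Casq2, at -0.15, and Calr, at -0.02). Among 9 genes of tubule formation and upkeep 4 were higher with no overlap, Cavin4 by 0.12 and Bin1, Dnm2 and Pacsin3 by 0.04 to 0.08, and 0 lower. Among 10 modulators of the release channel 3 were lower, S100a1 by -0.14 (10.77, 10.78 and 10.83 against 10.71, 10.59 and 10.66), Asph by -0.11 and Calm2 by -0.05, and 0 higher. The background shares for such separation are the 10.5% and 7.09% given above. In surface excitation (5 genes) 0 were apart, in store-operated calcium entry 1 of 4 was higher (Stim2, 0.05), and of 2 IP3 receptors Itpr2 was lower (-0.08). Some of these groups barely cleared each other, with margins of 0.00132 for Stim2, 0.00339 for Calr and 0.00909 for Itpr2. Margins were also small for Dnm2 (0.0113), Pacsin3 (0.0118), Calm2 (0.0157) and Bin1 (0.0234). Cacna2d1, the remaining subunit of the voltage sensor, differed by -0.02. Calm2 and Cacna2d1 have 2 probe sets each, of which only the brighter is given here. Atp2a1, Casq2, Calr, Bin1, Dnm2, Pacsin3, Asph, Calm2, Hrc, Stim2 and Itpr2 are named because their values were seen.

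**Figure D4:**
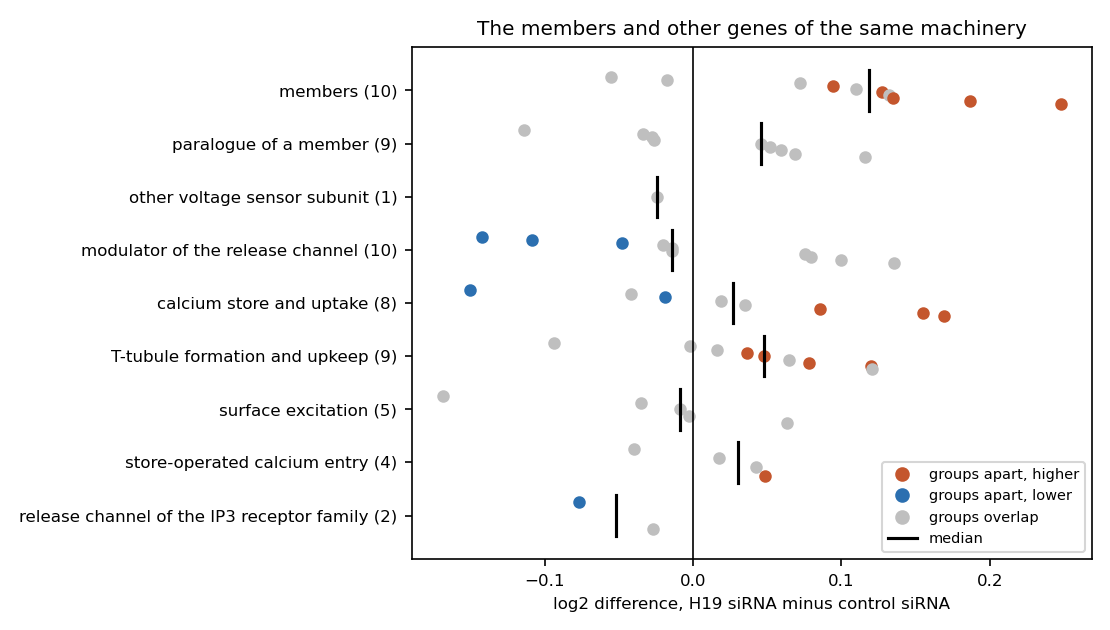
Log2 difference (horizontal axis, H19 siRNA minus control siRNA) of the 10 members and of 48 other genes grouped by role, 1 point a gene, coloured by whether the 3 arrays of each group overlap, with a black bar at each median. The members' median is 0.12, and the medians of the other roles lie between -0.05 and 0.05.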

How the data were processed

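Gene expression was measured on 6 Affymetrix whole-transcript arrays of C2C12 cells. The authors deposited a log2 value for each probe set. Per the submitters' processing notes these came from RMA, run in Affymetrix Expression Console. RMA corrects background, equalises the arrays by quantiles and summarises probes, which compresses differences near background. Its version is not given, and without scanner intensities detection could not be called. The number of arrays limits precision. Gene names came from the platform annotation at GEO, and all 10 members matched RefSeq by gene identifier. The probe set with the highest mean over 6 arrays stood for a gene, and probe sets listed under several genes stayed in as unnamed units, giving 21559 units. H19 siRNA minus control siRNA was fitted with limma 3.58.1 (lmFit, eBayes) in R 4.3.3, two-sided, without covariates, with Benjamini-Hochberg adjustment over all units and a threshold of 0.05. Intervals are 95%. Further probe sets of a member come from the same fit over all 35556 rows. Percentiles and the words brighter and dim rank the signals of probe sets, whose affinities differ, and do not compare expression between genes. The fit was tested on simulated data with independent normal noise. These held no effect of a whole array, so they do not show how the fit handles such effects here. The members, the role lists and the alternatives were chosen with earlier results of these data known. Besides the members, the paralogues, the genes with the smallest p in the wider list and the cell type check are named by rule, and 9 genes of that list were not analysed here.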

Additional observations from a re-analysis of the deposited data

How the results depend on the processing

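The 10 members kept the sign of their difference under the 15 alternatives, except Trdn, which went from -0.0176 to 0.0281 with array weights and ran from -0.0625 to 0.0555 with any array left out. Called members numbered 2 with an intensity trend and robust variance and 1 each with array weights, the second quantile normalisation and the filters at the 30th percentile and the median of the units. Of the other genes of the machinery 1 was called with the trend and 1 among units above the median, in both cases Tmem38b. Members with groups apart and higher numbered 2 after median centring (5.51% of units) and 5 to 8 with any array left out (15.2% to 19.6% of units), where fewer arrays make separation more frequent. Without the third H19 siRNA array 1 member, Jph1, was lower with no overlap, where 29.7% of units were apart in either direction. After the second quantile normalisation 5 members were again apart and higher, with Cacnb1 in place of Jsrp1. The median difference of the members stayed between 0.0926 and 0.1314. The called units, 43 in the main comparison, were 435 with the trend, 266 among units above the median, 111 among those above the 30th percentile, 70 with array weights, 11 over all rows, 3 with the replicate number as a block and 1 to 21 with any array left out (21 without the second H19 siRNA array, 4 or fewer without any other). The labels do not say that a number marks a shared culture. Same-numbered arrays did not deviate together (r = -0.017, -0.134 and -0.136). Values were centred within each group of 3 arrays, which makes such correlations offset one another, so whether the numbers pair the arrays is not settled. With the block 0 members were called.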
